A study of Caenorhabditis elegans with 12 samples.

Results

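The sodium-proton exchangers of the nhx family of Caenorhabditis elegans were followed at the RNA level in whole animals. The members were the genes named nhx-1, nhx-2, nhx-3, nhx-4, nhx-5, nhx-6, nhx-8 and nhx-9, each required to hold at least 60 counts over the 12 libraries. All 8 met that minimum, out of 46904 genes listed, and all 8 passed the filter on low counts. The gene pbo-4, an exchanger of the same family under another name, is given beside them with its partner pbo-1.

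Sodium-proton exchangers are membrane proteins that swap sodium ions for protons, and so move acid across the cell surface or in and out of intracellular compartments. In the worm, NHX-2 sits on the apical membrane of the intestine, where proton entry with dipeptides through PEPT-1 must be balanced by proton export. Vacuolar proton pumps (V-ATPases) acidify the same kinds of compartments with energy from ATP, while bicarbonate transporters and carbonic anhydrases buffer and move acid equivalents.

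The study asked which genes respond to low potassium and which of these depend on pmk-1, the gene of a p38 mitogen-activated protein kinase of immune and stress signalling. Wild-type N2 worms and pmk-1(km25) mutants, all synchronized adults on day 1, were washed into 100 mM NaCl (the low-potassium arm) or 100 mM KCl, kept there for 4 h with no bacteria, and frozen. This gave 4 groups, named here by strain and salt, of 3 libraries labelled as biological replicates, each from pooled whole worms. No group stayed on food or in ordinary medium, so each salt is described only against the other, and sodium differs between the media together with potassium. RNA of whole animals cannot tell fewer cells of a type apart from less RNA per cell.

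The 12 libraries held 8931797 to 11445709 counts each, which left 13353 genes to test. Reads of the pmk-1 gene remained in the mutant, at 21.8 ± 0.825 CPM (counts scaled to a common library total) in KCl and 23.6 ± 2.41 CPM in NaCl against 32.96 ± 3.33 and 32.3 ± 7.42 CPM in wild type (SD, n = 3 each). A count over the whole gene does not check the stretch that a deletion removes. The strains differed in reproductive content. Of 42 sperm markers 41 were matched and none was at 0 in all libraries, and their summed level ran from 12.03 to 183 CPM in wild type under KCl and from 24.9 to 305 CPM under NaCl, and in pmk-1 from 1803 to 4327 CPM under KCl and from 2144 to 6843 CPM under NaCl. Of 40 later embryo markers 39 were matched and none was at 0 in all libraries, and their sum ran from 272 to 437, from 219 to 313, from 81.3 to 139 and from 90.9 to 95.1 CPM in the same order of groups. Within each group the first replicate had the highest sperm score and the lowest later embryo score, where a score is the mean log2 CPM of a list centred over the libraries. Ribosomal RNA made up 4.28 ± 0.737% of counts in pmk-1 NaCl and 1.49 to 1.78% on average in the other groups.

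Read per kilobase of merged exon, nhx-2 was the most abundant member and nhx-6 the least. Mean levels over the 12 libraries were 23.3 CPM per kb for nhx-2, 9.36 for nhx-5, 6.03 for nhx-8, 4.92 for nhx-3, 3.22 for nhx-1, 3.16 for nhx-4, 2.89 for nhx-9 and 0.508 for nhx-6. The middle of that order was close: nhx-1 and nhx-4 changed places when coding length was used instead, at 4.03 and 4.17 CPM per coding kb. For scale, pbo-4 stood at 9.74 CPM per kb, next to nhx-5. Added up, the 8 members gave 74.0 to 102 CPM in wild-type libraries and 110 to 265 CPM in pmk-1 libraries, with no overlap between the strains. Here and below, groups without overlap are a description only. The share of all genes tested whose groups separate likewise is not given. The sum of 265 CPM belonged to the first replicate of pmk-1 NaCl, and the other 2 libraries of that group were at 141.8 and 139.6 CPM. In that library each of the 8 members was at its highest in the group, while in wild-type KCl the first replicate was highest for 4 of 8. Its sperm score was also the highest of all 12 libraries. For nhx-1, nhx-2 and nhx-8 the group means were ordered with pmk-1 NaCl at the top, then pmk-1 KCl, then the NaCl and last the KCl libraries of wild type, and only the step from pmk-1 KCl to wild-type NaCl separated neighbouring groups without overlap. The order was the same for nhx-5, but there the step from pmk-1 KCl to wild-type NaCl overlapped and the steps between the salts did not.

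**Figure D1:**
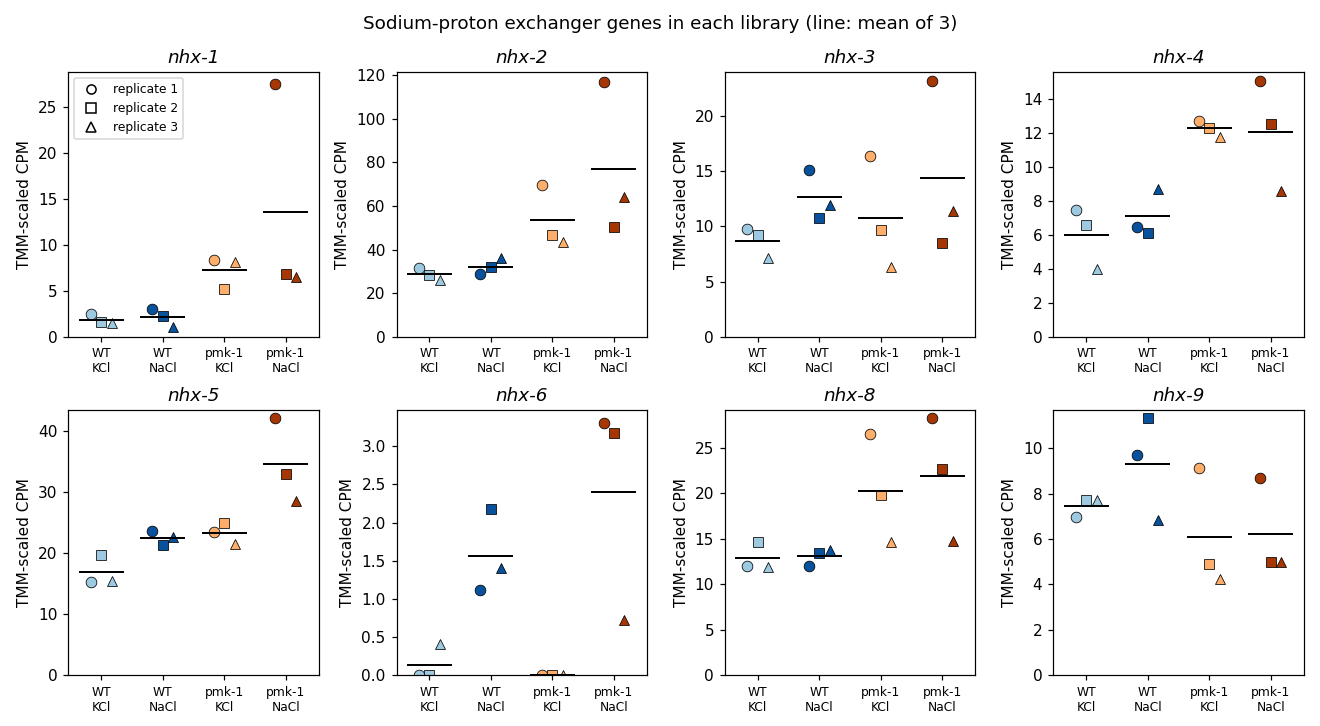
TMM-scaled CPM (vertical axes, each from 0) of the 8 exchanger genes in the 12 libraries, by group; points are single libraries, symbols mark the replicate number and lines are means of 3. For nhx-1 and nhx-2 all 6 pmk-1 libraries lie above all 6 wild-type libraries, and nhx-6 is above 0.5 CPM in the 6 NaCl libraries alone.

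The first comparison set NaCl against KCl within each strain. The member that passed was nhx-6 (II:1670829-1674401, plus strand, build WBcel235), the scarcest member, which was counted in all 6 NaCl libraries and in 1 of 6 KCl libraries. That call was made in pmk-1. In wild type its counts were 0, 0 and 4 in KCl and 10, 21 and 16 in NaCl. In pmk-1 its counts were 0, 0 and 0 in KCl and 29, 28 and 6 in NaCl. Every NaCl library was thus above every KCl library, although pmk-1 NaCl 3, at 0.728 CPM, was well below the other 2 at 3.31 and 3.17 CPM. Mean levels were 0.134 ± 0.232 CPM in wild-type KCl and 1.57 ± 0.553 CPM in wild-type NaCl (SD, n = 3 each), and 0 in pmk-1 KCl and 2.40 ± 1.45 CPM in pmk-1 NaCl.

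In pmk-1 nhx-6 was called higher in NaCl, with an adjusted p of 0.0276 in edgeR's quasi-likelihood test with Benjamini-Hochberg adjustment over all genes tested. Since all pmk-1 KCl libraries were at 0, the fitted log2 change (7.55 ± 1.47) depends on the prior count. The pooled NaCl level was 24.3-fold above a chosen floor of 3 counts over the KCl group, taken below as the bound of nhx-6. That value carries no counting error and no spread between libraries. In wild type the pooled counts of 47 and 4 gave a ratio of 11.8 (95% exact interval 4.33 to 45.2, counting error only), and the fitted log2 change was 3.44 ± 1.03. That change did not pass adjustment (unadjusted p = 0.00806, edgeR adjusted p = 0.502). The call in pmk-1 rests on few counts: its edgeR adjusted p rose to between 0.0563 and 0.111 when any of 6 single libraries was left out (wild-type NaCl 2 or 3, pmk-1 KCl 2 or 3, pmk-1 NaCl 1 or 2). The gene passed the filter on low counts only through its NaCl libraries, and it was not tested when pmk-1 was fitted alone. With no filter its edgeR adjusted p was 0.0196.

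Of the members, 0 passed in wild type in either direction, where 0.172% of all genes tested were called higher in NaCl and 0.015% lower. At an unadjusted p under 0.05 there were 2, nhx-5 and nhx-6, both higher, and DESeq2 also called 0. In pmk-1 1 of 8 members was called higher and 0 lower, where 2.33% of all genes were called higher and 0.382% lower. The median log2 change of the 8 members was 0.27 for wild type and 0.47 for the mutant, against -0.01 in both over all genes tested. Setting nhx-6 to its bound could not change the median of 0.47, since nhx-6 was the largest of the 8 either way. That median was -0.18 when pmk-1 NaCl 1 was left out, 0.24 when pmk-1 KCl 3 was, and 0.16 without all first replicates.

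The member with the next smallest p in both strains was nhx-5 (X:10576953-10581044, plus strand), the worm relative of the mammalian endosomal exchangers. It stood at 15.2, 19.7 and 15.4 CPM in the KCl libraries of wild type and at 23.6, 21.2 and 22.6 CPM in its NaCl libraries. In pmk-1 it stood at 23.4, 24.8 and 21.4 CPM in KCl and at 42.003, 32.9 and 28.4 CPM in NaCl. The salts did not overlap in either strain. The log2 change was 0.42 ± 0.18 in wild type (unadjusted p = 0.0365, edgeR adjusted p = 1) and 0.57 ± 0.18 in pmk-1 (unadjusted p = 0.00767, edgeR adjusted p = 0.145), and neither passed. Its exons share 49 bases with F57C7.4 on the other strand, which had 100 counts in all against 2772 for nhx-5.

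None of the other 6 members passed between the salts. Their log2 values in wild type ran from 0.02 ± 0.27 for nhx-8 to 0.54 ± 0.40 for nhx-3, the hypodermal member, whose 3 NaCl libraries (10.8 to 15.1 CPM) were all above its 3 KCl libraries (7.12 to 9.75 CPM). In pmk-1 they ran from -0.02 ± 0.28 for nhx-4 to 0.91 ± 0.55 for nhx-1. The values for nhx-1 and nhx-3 in pmk-1 rested on the first NaCl replicate: without it they were -0.17 and -0.18. No member was called for a difference of its salt effect between the strains, where 0.0374% of all genes tested were called higher in pmk-1 and 0% lower. There 0 of 8 had an unadjusted p under 0.05, DESeq2 also called 0, and the largest value was that of nhx-6 (4.11 ± 2.08 on the log2 scale, unadjusted p = 0.0785, edgeR adjusted p = 0.99997), with a group at 0 in it.

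**Figure D2:**
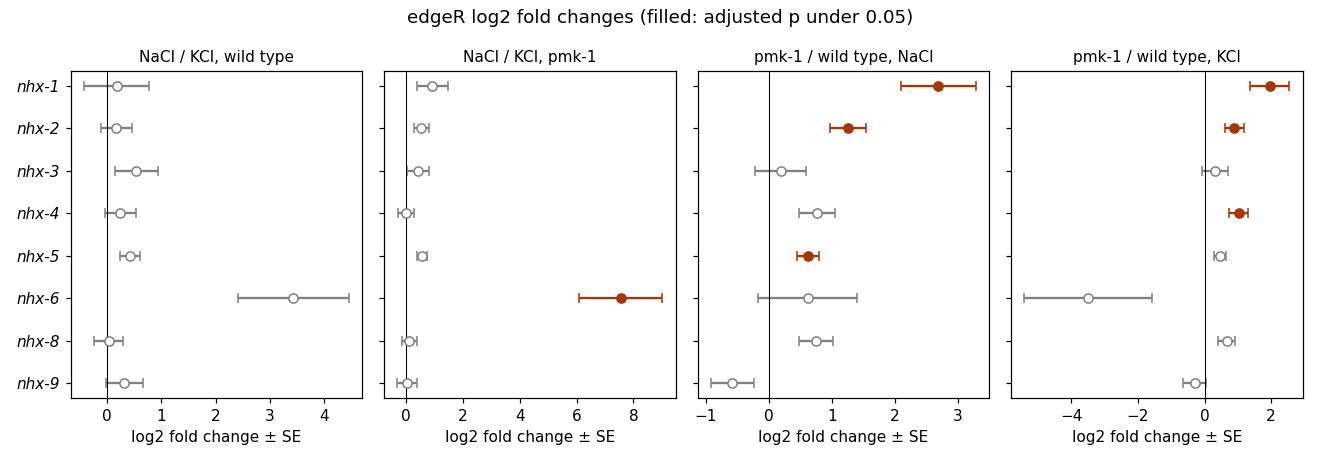
edgeR log2 fold changes of the 8 exchanger genes (horizontal axes, with a range of its own in each panel) in the 4 comparisons; bars are standard errors and filled points have an adjusted p under 0.05. In the salt comparisons nhx-6 in pmk-1 is the only filled point, and its fitted size depends on a group at 0; in the genotype comparisons 3 members are filled in each salt, on the right of 0.

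The second comparison set pmk-1 against wild type within each salt. In NaCl 3 of 8 members were called higher (nhx-1, nhx-2 and nhx-5) and 0 lower. In KCl 3 of 8 were called higher (nhx-1, nhx-2 and nhx-4) and 0 lower. Many other genes differed as well: 16.7% of all genes tested were called higher and 10.1% lower in pmk-1 in NaCl, and 15.2% higher and 9.18% lower in KCl. The median log2 difference of the 8 members was 0.68 in NaCl and 0.56 in KCl, against 0.06 and 0.02 over all genes tested. Setting nhx-6 to its bound could not change the median of 0.56, since nhx-6 was the lowest of the 8 either way. Without all first replicates the medians were 0.44 and 0.42, and with the later embryo score taken as covariate 0.22 and -0.13. At an unadjusted p under 0.05 there were 5 members higher in each salt, as were 25.1% of all genes tested in NaCl and 22.8% in KCl. Replicate numbers were taken as pairs in the NaCl comparison, although libraries 2 correlated less with each other (0.1996) than with another number (0.230). The reported fit has no such block. With a replicate block 5 members were called higher there, as were 3123 of 13353 genes tested. Those in addition were nhx-4 (edgeR adjusted p = 0.0498) and nhx-8 (edgeR adjusted p = 0.0328).

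The genotype differences moved with the reproductive markers. All 38 sperm markers tested were called higher in pmk-1 in NaCl and 37 in KCl, and of 31 later embryo markers tested 18 were called lower in NaCl, and 16 lower and 1 higher in KCl. With the later embryo score taken as covariate 0 members were called higher in either salt and nhx-3 was called lower in both, while 51 genes in all were called higher and 116 lower in NaCl, and 278 and 415 in KCl. The later embryo scores of the strains did not overlap, so embryo content and genotype cannot be told apart here.

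Among the members called, nhx-1 (X:16017121-16021755, plus strand) differed most between the strains. Its levels were 2.46, 1.62 and 1.504 CPM in the KCl libraries of wild type and 3.01, 2.29 and 1.05 CPM in its NaCl libraries. In pmk-1 they were 8.39, 5.17 and 8.18 CPM in KCl and 27.5, 6.79 and 6.56 CPM in NaCl. The lowest pmk-1 library was above the highest wild-type library, and the first pmk-1 NaCl replicate was over 4.1 times the mean of the other 2. The log2 difference was 2.69 ± 0.59 in NaCl (edgeR adjusted p = 0.00853) and 1.95 ± 0.59 in KCl (edgeR adjusted p = 0.0328). Without the first pmk-1 NaCl replicate the NaCl value was 1.63 (edgeR adjusted p = 0.0245), and the KCl call was lost when wild-type KCl 1, 2 or 3 or pmk-1 KCl 1 or 3 was left out (edgeR adjusted p = 0.0506 to 0.120).

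The apical intestinal exchanger nhx-2 (II:7690711-7693957, minus strand) held 28.9 to 46.0% of the family's CPM in every library. It stood at 31.6, 28.5 and 25.96 CPM in the KCl libraries of wild type and at 28.8, 31.9 and 35.99 CPM in its NaCl libraries. In pmk-1 it stood at 69.7, 46.8 and 43.7 CPM in KCl and at 117, 50.3 and 64.2 CPM in NaCl. Again the strains did not overlap in either salt, and the first pmk-1 libraries were the highest. The gene was 2.39-fold higher in pmk-1 in NaCl (log2 1.26 ± 0.28, edgeR adjusted p = 0.00912) and 1.86-fold higher in KCl (log2 0.90 ± 0.28, edgeR adjusted p = 0.0385). Without all first replicates the log2 values were 0.72 and 0.77 and both passed (edgeR adjusted p = 0.00278 and 0.00192). Leaving out 1 library ended the KCl call for each wild-type KCl library, for wild-type NaCl 2 and 3 and for pmk-1 KCl 1 and 2 (edgeR adjusted p = 0.0511 to 0.141).

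Intestinal marker genes stood higher in some pmk-1 libraries too. Of 12 markers 11 were matched, none was at 0 in all libraries, and their summed level ran from 2151 to 2708 CPM under KCl and from 2651 to 3127 CPM under NaCl in wild type, and from 2616 to 4979 CPM and from 3800 to 5617 CPM in pmk-1. In each salt 3 of the 11 tested were called higher in pmk-1 and 0 lower. Over all genes tested 16.7% were called higher and 10.1% lower in NaCl, and 15.2% and 9.18% in KCl. Across the 12 libraries, which share depth and scaling, the log2 level of nhx-2 had a Pearson r of 0.91 with the intestinal score, 0.85 after group means were removed. It followed the later embryo score (-0.94, or -0.82 with group means removed) and the oocyte score (-0.88, or -0.87) about as closely. The part of the intestinal and oocyte markers in the difference of nhx-2 was not tested.

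The ubiquitous member nhx-4 (X:6914289-6921136, plus strand), found on basolateral membranes, was higher in pmk-1 in KCl. Its levels were 7.49, 6.57 and 4.01 CPM in wild-type KCl against 12.7, 12.3 and 11.8 CPM in pmk-1 KCl. In NaCl they were 6.46, 6.13 and 8.69 CPM in wild type and 15.1, 12.6 and 8.62 CPM in pmk-1. The pmk-1 KCl libraries were close together and clear of wild type, whereas pmk-1 NaCl 3 lay inside the wild-type range. The log2 difference was 1.03 ± 0.29 in KCl (edgeR adjusted p = 0.0237) and 0.77 ± 0.28 in NaCl, where it did not pass (edgeR adjusted p = 0.0657). The KCl call was lost without wild-type KCl 2 or 3 or pmk-1 KCl 1 or 2 (edgeR adjusted p = 0.0514 to 0.0944).

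The 2 members related to mammalian intracellular exchangers had smaller differences. The levels given above for nhx-5 put all pmk-1 NaCl libraries above all wild-type NaCl libraries, and likewise in KCl. Its log2 difference was 0.62 ± 0.18 in NaCl (edgeR adjusted p = 0.0246) and 0.47 ± 0.18 in KCl (edgeR adjusted p = 0.0746). The NaCl call was lost without all first replicates (0.45, edgeR adjusted p = 0.0735), with the NaCl groups fitted alone (0.59, edgeR adjusted p = 0.0679), with the ribosomal RNA share as a covariate (0.68, edgeR adjusted p = 0.107) and without wild-type NaCl 2 or 3 or pmk-1 NaCl 1 or 2 (edgeR adjusted p = 0.0538 to 0.122). Levels of nhx-8 (I:12825664-12834163, plus strand), the relative of mammalian NHE8, were 12.002, 14.7 and 11.8 CPM in the KCl libraries of wild type and 12.02, 13.4 and 13.7 CPM in its NaCl libraries. In pmk-1 they were 26.5, 19.8 and 14.6 CPM in KCl and 28.3, 22.6 and 14.7 CPM in NaCl. The strains were separate in NaCl, and in KCl the highest wild-type library was just above the lowest pmk-1 library. Neither difference passed (log2 0.75 ± 0.27 in NaCl, edgeR adjusted p = 0.0590; 0.66 ± 0.27 in KCl, edgeR adjusted p = 0.0929).

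The hypodermal nhx-3 (V:7540890-7545523, minus strand) and the excretory-cell nhx-9 (IV:11930872-11935718, plus strand) did not pass between the strains in either salt. Levels of nhx-3 were 9.75, 9.24 and 7.12 CPM in wild-type KCl and 16.4, 9.69 and 6.32 CPM in pmk-1 KCl. In NaCl they were 15.1, 10.8 and 11.9 CPM in wild type and 23.2, 8.49 and 11.4 CPM in pmk-1. The strains overlapped in both salts, and the first pmk-1 replicate was 2.04 times the mean of the other 2 in KCl and 2.33 times in NaCl. The log2 difference was 0.19 ± 0.40 in NaCl (edgeR adjusted p = 0.736) and 0.31 ± 0.40 in KCl (edgeR adjusted p = 0.588). The first value was -0.38 without the first pmk-1 NaCl replicate, and the second -0.12 without the first pmk-1 KCl replicate. With the later embryo score taken as covariate they were -1.55 ± 0.31 and -1.39 ± 0.31 (edgeR adjusted p = 0.0361 and 0.0276). After group means were removed the log2 level of nhx-3 had a Pearson r of -0.96 with that score over the 12 libraries, the most negative of the 8 members. Summed hypodermal markers (12 of 12 matched, none at 0 in all libraries) ran from 3072 to 3561, from 3174 to 4065, from 4127 to 5491 and from 4455 to 5392 CPM, first in wild type under KCl and NaCl and then in pmk-1 under the same salts. Most of the sum was col-140 and col-19 (means of 2163 and 1041 CPM in wild-type KCl). Of the 12 markers 3 were called higher in pmk-1 and 1 lower in NaCl, and 2 and 1 in KCl. Over all genes tested the shares were 16.7% and 10.1%, and 15.2% and 9.18%. Markers lower in pmk-1 included dpy-7, at means of 0.587 against 10.7 CPM in wild type in KCl and 0.457 against 5.21 CPM in NaCl.

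In nhx-6, whose counts are given above, the strains overlapped in NaCl (log2 0.62 ± 0.78, edgeR adjusted p = 0.566). In KCl it had 4 counts in wild type and 0 in pmk-1, so that the fitted value (-3.49 ± 1.92, edgeR adjusted p = 0.210) depends on the prior count.

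In nhx-9 the pmk-1 means were below those of wild type. Its levels were 6.98, 7.72 and 7.72 CPM in wild-type KCl and 9.11, 4.89 and 4.25 CPM in pmk-1 KCl. In NaCl they were 9.69, 11.3 and 6.85 CPM in wild type and 8.67, 4.98 and 4.98 CPM in pmk-1. Replicates 2 and 3 of pmk-1 were below every wild-type library, and the first was not. The log2 difference was -0.58 ± 0.34 in NaCl (edgeR adjusted p = 0.218) and -0.30 ± 0.34 in KCl (edgeR adjusted p = 0.541). Without all first replicates the values were -0.89 (edgeR adjusted p = 0.0340) and -0.72 (edgeR adjusted p = 0.0762), so that nhx-9 was called lower in pmk-1 in NaCl in that smaller set. Summed excretory cell markers (10 of 10 matched, none at 0 in all libraries) ran from 442 to 498, from 519 to 567, from 430 to 629 and from 626 to 1207 CPM, with groups in the order just used for the hypodermal markers. Most of the sum in wild-type KCl was vha-8 (mean of 275 CPM), which is also listed as a pump subunit. In pmk-1 NaCl ifb-1 had 5114 counts in the first library against 1654 and 1053 in the others. Of the 10 markers 2 were called higher in pmk-1 and 0 lower in NaCl, and 1 and 1 in KCl. Log2 values were above 0 for 7 of 10 in NaCl and 6 in KCl. The shares called over all genes tested were 16.7% and 10.1%, and 15.2% and 9.18%. The excretory cell score was -0.29 and -0.52 in pmk-1 KCl 2 and 3, below the 3 wild-type KCl libraries (-0.17 to 0.04). In pmk-1 NaCl 2 and 3 it was 0.16 and -0.13, inside the range of the wild-type NaCl libraries (-0.17 to 0.17). The log2 level of nhx-9 had a Pearson r of 0.556 with the excretory cell score over the 12 libraries, and 0.915 after group means were removed. With group means removed it also had an r of -0.861 with the later embryo score and 0.853 with the neuron score. The part of these markers in the values of nhx-9 was not tested.

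**Figure D3:**
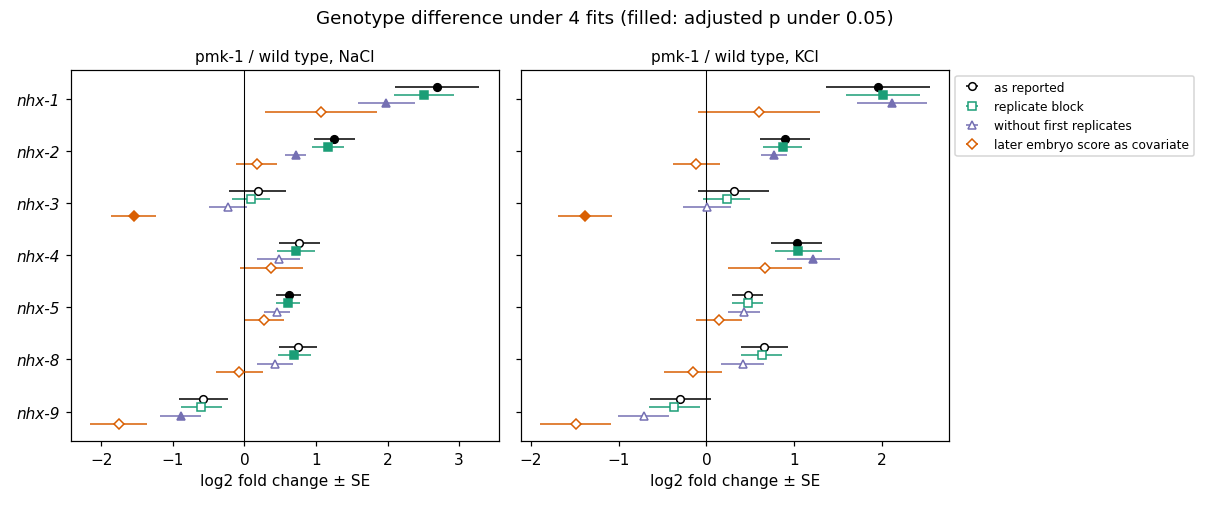
edgeR log2 fold changes between pmk-1 and wild type (horizontal axes) of 7 exchanger genes in NaCl and in KCl under 4 fits; bars are standard errors, filled symbols have an adjusted p under 0.05, and nhx-6 is left out because a group was at 0. Values with the later embryo score taken as covariate lie to the left of the reported ones for all 7 genes in both salts, and nhx-3 is filled on the left of 0 only in that fit.

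The exchanger pbo-4 (X:10954134-10958233, plus strand) works on the basolateral side of the posterior intestine, where it releases protons that open the PBO-5 and PBO-6 channels of muscle during defecation, and PBO-1 is its calcineurin-B-like partner. Counts of pbo-4 gave 25.1, 18.8 and 27.7 CPM in the KCl libraries of wild type and 22.4, 17.9 and 14.8 CPM in its NaCl libraries. In pmk-1 they gave 30.6, 25.9 and 28.3 CPM in KCl and 44.7, 21.3 and 17.8 CPM in NaCl. The strains overlapped in both salts and no difference passed (log2 0.61 ± 0.31 in NaCl, edgeR adjusted p = 0.161; 0.24 ± 0.31 in KCl, edgeR adjusted p = 0.580). By contrast pbo-1 was higher in pmk-1: 11.1, 11.3 and 13.3 CPM in wild-type KCl against 24.03, 22.95 and 23.1 CPM in pmk-1 KCl. In NaCl it stood at 12.6, 13.5 and 11.9 CPM in wild type and 41.9, 23.9 and 23.3 CPM in pmk-1. Those groups were far apart, at log2 1.23 ± 0.22 in NaCl (edgeR adjusted p = 0.00495) and 0.97 ± 0.22 in KCl (edgeR adjusted p = 0.0108). Both calls held in 19 of 20 alternatives, the exception being the later embryo covariate.

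Of 10 partners of the exchangers, which include pbo-4 and pbo-1, 5 were called higher in pmk-1 in NaCl and 4 in KCl, and 0 lower, where 16.7% and 15.2% of all genes tested were called higher. The count of 5 fell to 1 when either wild-type NaCl 2 or pmk-1 NaCl 1 was left out, to 2 without wild-type NaCl 1 or 3 and when the NaCl groups were fitted alone, and to 3 without wild-type KCl 2 or 3. The count of 4 was 1 without wild-type KCl 2 or 3 and 7 without all first replicates. Beside pbo-1, those with the smallest adjusted p were itr-1, the inositol trisphosphate receptor that times defecation (log2 1.12 ± 0.31 in NaCl, edgeR adjusted p = 0.0223; 1.29 ± 0.31 in KCl, edgeR adjusted p = 0.0132), nrfl-1, a scaffold protein (0.87 ± 0.25 in NaCl, edgeR adjusted p = 0.0260), and chpf-2, a calcineurin-B-like protein (1.4996 ± 0.40 in KCl, edgeR adjusted p = 0.0208). The peptide transporter pept-1, the functional partner of nhx-2, was higher in both salts. Under KCl it had 132, 157 and 179 counts in wild type against 648, 352 and 269 in pmk-1. Under NaCl it had 73, 161 and 256 counts in wild type against 603, 267 and 235 in pmk-1. Wild-type NaCl counts reached into the pmk-1 range, but after scaling the groups were separate. The log2 difference was 1.43 ± 0.45 in NaCl (edgeR adjusted p = 0.0368) and 1.46 ± 0.45 in KCl (edgeR adjusted p = 0.0358). Between the salts 0 of 10 partners passed in either strain, and at an unadjusted p under 0.05 there were 0 for wild type and 1 for pmk-1, which was lower.

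The vacuolar proton pump was the related list with the most calls between the salts. In pmk-1 2.33% of all genes tested were called higher in NaCl than in KCl and 0.382% lower. Of the 21 subunits 12 were called higher and 0 lower, with a median log2 change of 0.56. The 3 with the smallest adjusted p encode parts of the cytosolic sector of the pump: vha-11 (0.75 ± 0.10, edgeR adjusted p = 0.00285), vha-13 (0.73 ± 0.12, edgeR adjusted p = 0.00842) and vha-12 (0.96 ± 0.16, edgeR adjusted p = 0.00942). Levels of vha-12 were 226, 163 and 160.3 CPM under KCl and 424, 319 and 325 CPM under NaCl in pmk-1. For wild type they were 196, 241 and 252 CPM under KCl and 259, 294 and 292 CPM under NaCl. The salts were separate in both strains. In wild type 0 of 21 subunits passed, and the median was 0.19 with 20 of 21 above 0. At an unadjusted p under 0.05 there were 5, all higher, where 2.94% of all genes tested were higher. No subunit was called for a difference of the salt effect between strains, although 10 had an unadjusted p under 0.05 with the larger effect in pmk-1. Of all genes tested 3.29% were higher in that difference at the same threshold. The count of 12 fell to 1 without pmk-1 KCl 2 or 3, to 4 without pmk-1 NaCl 1 or 2, to 6 without pmk-1 NaCl 3 and to 0 when pmk-1 was fitted alone. Ribosomal RNA, at 3.52 to 4.997% of counts in pmk-1 NaCl and 0.605 to 3.26% in pmk-1 KCl, moved with this comparison, and with its share taken as covariate the count was 8.

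**Figure D4:**
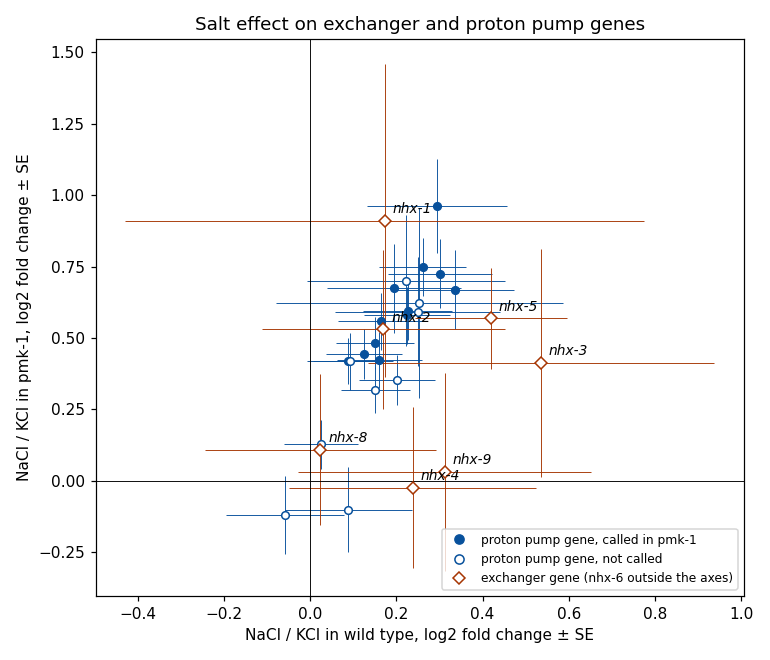
Log2 fold changes of NaCl against KCl in wild type (horizontal axis) and in pmk-1 (vertical axis) for 21 proton pump genes and 7 exchanger genes; bars are standard errors, and filled circles are the 12 pump genes called in pmk-1, while nhx-6 lies outside the axes. Most pump genes lie between 0 and 0.35 on the horizontal and between 0.3 and 1 on the vertical axis, where the exchangers have wider error bars.

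Between the strains 7 of 21 pump subunits were called higher in pmk-1 in NaCl, led by vha-17 (0.44 ± 0.10, edgeR adjusted p = 0.00972), vha-14 (0.37 ± 0.09, edgeR adjusted p = 0.0140) and vha-10 (0.40 ± 0.10, edgeR adjusted p = 0.0145), and 0 of 21 in KCl in either direction. Of all genes tested 16.7% were called higher in NaCl and 15.2% in KCl. In KCl 0 subunits were higher and 1 lower at an unadjusted p under 0.05, against 22.8% and 15.5% of all genes tested. That count of 7 ranged from 0 to 9 over fits without 1 library: it was 0 without wild-type NaCl 3, 1 without wild-type NaCl 2 or pmk-1 NaCl 1, 3 without wild-type NaCl 1 or pmk-1 NaCl 2, and 4 without any 1 wild-type KCl library or pmk-1 KCl 3. Of 9 bicarbonate transport and carbonic anhydrase genes tested out of 10, 3 were called higher in NaCl in pmk-1, all of them carbonic anhydrases: cah-1 (1.71 ± 0.32, edgeR adjusted p = 0.0150), cah-4 (0.84 ± 0.17, edgeR adjusted p = 0.0235) and cah-5 (1.07 ± 0.24, edgeR adjusted p = 0.0357). In pmk-1 2.33% of all genes tested were called higher in NaCl. In wild type cah-1 had 31, 32 and 28 counts under KCl and 85, 86 and 90 under NaCl. In pmk-1 it had 23, 21 and 11 counts under KCl and 65, 39 and 51 under NaCl. The salts were thus separate in both strains, and the wild-type change of 1.54 ± 0.31 had an unadjusted p of 3.51e-04 but an edgeR adjusted p of 0.102. In wild type 0 of 9 passed and 3 were higher at an unadjusted p under 0.05, as were 2.94% of all genes tested. The pmk-1 count of 3 fell to 0 without any 1 of pmk-1 NaCl 1 and pmk-1 KCl 2 and 3 and when pmk-1 was fitted alone, and to 1 without wild-type KCl 3 or pmk-1 NaCl 2 or with the ribosomal RNA covariate.

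Between strains, 2 of the 9 acid-base genes were called higher in pmk-1 in NaCl (cah-3 at 0.77 ± 0.19, edgeR adjusted p = 0.0143, and cah-5 at 0.81 ± 0.24, edgeR adjusted p = 0.0268) and 1 in KCl (cah-3 at 0.91 ± 0.20, edgeR adjusted p = 0.00809), with 0 lower. Over all genes tested 16.7% were called higher in pmk-1 and 10.1% lower in NaCl, and 15.2% and 9.18% in KCl. Of 5 proton-coupled transporters tested out of 6, 2 were higher and 1 lower in pmk-1 in NaCl, and 3 higher and 1 lower in KCl. The peptide transporter family led the higher ones: beside pept-1 there were pept-2 (1.03 ± 0.30 in NaCl, edgeR adjusted p = 0.0249; 1.08 ± 0.30 in KCl, edgeR adjusted p = 0.0220) and pept-3 (1.305 ± 0.31 in KCl, edgeR adjusted p = 0.0125). The lower one was smf-1, a divalent metal transporter (-0.77 ± 0.22 in NaCl, edgeR adjusted p = 0.0269; -0.81 ± 0.22 in KCl, edgeR adjusted p = 0.0225). Between the salts 0 of these 5 passed in either strain, with 0 at an unadjusted p under 0.05 for wild type and 1 for pmk-1, which was lower. With the later embryo score taken as covariate, the calls between strains came to 0 in both salts for the pump subunits, the partners, the acid-base genes and the proton-coupled transporters.

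The genes whose log2 levels followed each member most closely over the 12 libraries were taken from 6025 named genes with at least 5 CPM on average. For nhx-1 these were pph-1 and mlp-1 (Pearson r 0.973 for both), and for nhx-2 mrp-3 (0.981) and inx-17 (0.975). For nhx-3 they were grd-14 (0.913) and col-71 (0.906), for nhx-4 htas-1 and spp-3 (0.933 for both), and for nhx-5 kvs-5 (0.965) and gta-1 (0.955). For nhx-6 they were slfl-5 (0.940) and xbp-1 (0.931), the gene of a transcription factor of the unfolded protein response, for nhx-8 nlp-26 (0.946) and nrf-6 (0.935), and for nhx-9 pat-6 (0.873) and tyr-4 (0.864). These values describe 12 libraries that share strain, salt and replicate differences, and after group means were removed that of nhx-6 with xbp-1 was 0.512 while that of nhx-3 with col-71 was 0.971. Among the members, nhx-1 and nhx-2 had an r of 0.898, or 0.609 with group means removed, and nhx-6 had its highest r with nhx-5, at 0.543 and 0.0520.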

How the data were processed

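The values are expected counts as deposited by the authors, for 46904 genes in 12 libraries. RSEM 1.3.3, STAR 2.7.1a, DESeq2 1.40.2 and R 4.3.1 are listed in the submitters' processing notes. What each tool did, and which genome build, annotation and strandedness were used, is not given in the sources used here. Counts were whole numbers as deposited. Identifiers were matched to the Ensembl release 115 annotation of WBcel235 (46817 matched), which also gave the coordinates and lengths.

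Genes kept by filterByExpr (13353) were scaled by TMM and fitted in edgeR 4.0.16 under R 4.3.3 with the quasi-likelihood model, 1 mean per group, all 12 libraries and no covariate. Calls were made at 0.05 on p-values adjusted by Benjamini and Hochberg over all genes tested. Beside a log2 change ± gives a standard error, taken as the absolute change over the root of the F statistic; ± beside CPM is the SD over 3 libraries. CPM were computed with TMM-scaled totals. The fit was run on simulated counts with the same spread for all genes, no replicate differences and changes in pmk-1 NaCl alone. That check does not cover the replicate differences of these data.

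The members, the related lists and the comparisons were chosen with earlier results of these data known. All members were named in full, with pbo-4 and pbo-1; from the related lists, up to 3 genes with the smallest adjusted p in each direction of a comparison. Single genes from pooled worms were tested over libraries. The p-values set each difference against a spread estimated from the replicates of all 4 groups, with information shared across genes, not from the compared groups alone. The reported fit leaves out the replicate numbers, also where they were taken as pairs.

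Alternatives were RLE normalization, DESeq2 1.42.0, no filter on low counts, a replicate block, no first replicates, a fit on the groups compared alone, the later embryo score or the ribosomal RNA percent as a covariate, and each library left out. Replicate numbers were checked as pairs: after group means were removed, libraries 1, 2 and 3 had correlations across genes with their namesakes of 0.626, 0.172 and 0.453 between salts in wild type, 0.738, 0.358 and 0.524 in pmk-1, and 0.427, 0.1996 and 0.266 between strains in NaCl, all above 0.1 and so taken as paired, although libraries 2 correlated more with a library of another number (up to 0.265, 0.496 and 0.230). Between strains in KCl they were 0.409, 0.065 and 0.316, and the numbers were not taken as pairs there because of libraries 2 alone. The labels do not state pairing, and the comparisons taken as paired link the same libraries, so this split rests on the cut at 0.1.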

Additional observations from a re-analysis of the deposited data

How the results depend on the processing

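The 0 calls of members between salts in wild type and for the interaction held in all alternatives run. In pmk-1 the 1 member called between salts remained 1 in each alternative except the fit of pmk-1 alone, where it was 0 because nhx-6 failed the filter on low counts there, and it ranged from 0 to 1 over fits without 1 library. Between strains in NaCl the 3 members called higher became 5 with DESeq2, 5 with the replicate block, 2 without first replicates, 2 with those groups fitted alone and 0 with the later embryo covariate, and ranged from 2 to 5 over fits without 1 library (5 without pmk-1 NaCl 3). The 0 called lower there became 1 without first replicates (nhx-9) and 1 with the later embryo covariate (nhx-3). Between strains in KCl the 3 called higher became 4 with DESeq2 and 0 with the later embryo covariate, and ranged from 0 to 5 without 1 library: 0 when wild-type KCl 2 or 3 or pmk-1 KCl 1 was left out, 1 when it was wild-type KCl 1 or pmk-1 KCl 2, and 5 when it was pmk-1 NaCl 1. The 0 called lower became 1 with the later embryo covariate (nhx-3). The replicate block left 3 called higher in KCl, where the numbers were not taken as pairs, and 1 in the salt comparison of pmk-1. Apart from the 5 in NaCl, it changed no count of members.

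Between strains, signs changed as follows. With the later embryo covariate, nhx-3 stood at -1.55 and nhx-8 at -0.069 in NaCl, and nhx-2 at -0.11, nhx-3 at -1.39 and nhx-8 at -0.15 in KCl. Without first replicates nhx-3 stood at -0.23 in NaCl, and with the ribosomal RNA covariate nhx-9 stood at 0.044. Without 1 library, nhx-3 ranged from -0.38 to 0.43 in NaCl and from -0.12 to 0.60 in KCl. Between salts, where none of these was called, the sign changed in pmk-1 for nhx-9 in 7 of 20 alternatives, nhx-4 in 3, nhx-1 and nhx-8 in 2 each and nhx-3 in 1, and in wild type for nhx-8 in 5 and nhx-1 in 2. The cause of these changes was not tested. Counts of at most 29 per library limit what can be said of nhx-6, and 3 libraries per group leave most calls of members between strains in KCl dependent on single libraries.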
